A study of Mus musculus with 48 samples.

Results

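The 7 sirtuin genes Sirt1 to Sirt7 and 3 genes of nicotinamide adenine dinucleotide (NAD) salvage and nicotinamide clearance, Nampt, Nmnat1 and Nnmt, were followed in murine striatal cells treated with 14 compounds. The 10 genes were chosen by symbol from the 27281 genes of the normalized abundance table, with earlier results of these data known. RNA was sequenced from 48 samples, 3 in each of 16 conditions, after 24 hours in serum-free medium. All cells were immortalised striatal progenitor cells of the STHdh series on a C57BL/6 background, purchased as 1 line per genotype. STHdhQ111 cells carry mutant huntingtin with an expanded polyglutamine tract and STHdhQ7 cells carry huntingtin with a short one, so that genotype and cell line cannot be told apart.

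STHdhQ111 cells received selisistat, loxapine, cyproheptadine, meclizine or diacylglycerol kinase inhibitor II, here DKI, at 10 µM. Pizotifen was given at 5 µM, cysteamine at 250 µM, 4-deoxypyridoxine, here DOP, at 4 mM and sodium butyrate at 1 mM. The lowest labelled doses were 0.5 nM (nicotinamide and haloperidol), 1 nM (nortriptyline), 10 nM (trichostatin A) and 250 nM (fingolimod phosphate). The controls were STHdhQ111 and STHdhQ7 cells with DMSO vehicle. By their labels the 3 samples of a condition were collected at different combinations of day and time. No label says whether their cultures were grown independently. P-values measure the spread between the samples of a condition, pooled over all 16 conditions with collection day taken out. Part of this spread may be technical. Samples were collected on 3 days at 3 times of day. By their labels, cyproheptadine and DKI had no sample from day 1 and 2 samples each from day 3, and the term for collection day in the test uses these days as labelled. Selisistat was collected in the same combinations of day and time as both vehicle controls. Nicotinamide shared its combinations with nortriptyline, DOP, sodium butyrate, loxapine and cysteamine, and shared none with the vehicle. Values below are the authors' normalized abundances on the log2 scale, and their depth in reads is unknown. Of the neural progenitor markers, Vim (15.4) was high in the STHdhQ111 vehicle, whereas Nes (4.96) and Sox2 (4.81) were low beside the STHdhQ7 vehicle (10.95 and 8.91). The fibroblast marker Col1a1 stood at 14.6, and all 3 fibroblast markers were above 6. The markers of mature striatal projection neurons stood at 2.46 or below, and Gsx2, Drd2, Aqp4 and Olig2 have no row in the table used here. The part of these marker differences in the results below was not tested.

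Sirtuins are enzymes that remove acetyl and other acyl groups from proteins, and each reaction consumes NAD and releases nicotinamide. NAMPT, the rate-limiting enzyme of salvage, turns nicotinamide into nicotinamide mononucleotide, and NMNAT enzymes turn that into NAD. NNMT takes nicotinamide out of the cycle by methylation. SIRT1, SIRT6 and SIRT7 are mainly nuclear, SIRT2 is mainly cytoplasmic, and SIRT3, SIRT4 and SIRT5 are mitochondrial. Selisistat, also named EX-527, inhibits the SIRT1 enzyme and has been tested in Huntington's disease. Nicotinamide is both the substrate of salvage and, at concentrations far above the one used here, an inhibitor of sirtuins. Sodium butyrate and trichostatin A inhibit the zinc-dependent histone deacetylases, a separate family that does not use NAD. The RNA levels measured here hold no information on the activity of these enzymes.

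The stretches before the start sites of Sirt1, which encodes the target of selisistat, and of Nampt are printed because Nampt is known as a target of the circadian factors CLOCK and BMAL1, which bind E-boxes and with which SIRT1 interacts. They are the 250 bases upstream of the RefSeq start, read 5′ to 3′ on the strand of the gene, in GRCm38.p6. Capitals mark the E-box CACGTG, which reads the same on both strands.
Sirt1, chr10:63339036-63339285, minus strand: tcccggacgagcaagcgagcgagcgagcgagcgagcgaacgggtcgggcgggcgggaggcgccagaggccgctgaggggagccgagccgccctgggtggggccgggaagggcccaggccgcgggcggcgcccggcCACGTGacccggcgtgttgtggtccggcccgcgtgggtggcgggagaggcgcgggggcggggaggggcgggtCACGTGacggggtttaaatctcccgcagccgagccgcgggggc
Nampt, chr12:32820085-32820334, plus strand: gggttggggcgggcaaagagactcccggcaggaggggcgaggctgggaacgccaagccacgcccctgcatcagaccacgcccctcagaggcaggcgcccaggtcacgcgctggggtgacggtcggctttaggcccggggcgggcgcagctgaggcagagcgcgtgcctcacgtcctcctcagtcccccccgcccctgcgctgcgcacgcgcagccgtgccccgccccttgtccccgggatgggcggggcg
Sirt1 held 2 E-boxes, whose first bases lie 115 and 43 bases before its start, and 79.2% of its 250 bases were G or C. Nampt held none in this window, with 75.6% G or C. Of 32851 mouse promoter windows of this length, 6.02% held the motif, and among the 9 genes with an entry it was found for Sirt1 alone. The element TGATGCAA, a composite C/EBP-ATF site searched on both strands, was in 0.791% of all windows and in none of these. A letter match is a description of the window and not a measure of binding. Both windows lie inside the gene spans annotated by GENCODE, which places Sirt1 at 63319005 to 63381704 of chromosome 10 and Nampt at 32819545 to 32853349 of chromosome 12.

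Of the 10 genes, 9 reached the minimum mean log2 abundance of 1 that a gene needed to be tested. Nnmt did not, at a mean of 0.52 over all samples. On a scale of log2 abundance per kilobase of transcript, the STHdhQ111 vehicle placed Sirt2 highest (8.69), followed by Nampt (7.78), Sirt7 (7.21), Sirt1 (6.78), Sirt6 (6.57), Nmnat1 (6.26), Sirt3 (5.53), Sirt4 (5.47) and Sirt5 (5.23), with Nnmt last (0.43). The mitochondrial sirtuins were thus the 3 lowest of the 9 tested genes. The standard deviation of the 3 vehicle samples was 0.05 for Nampt, 0.09 for Sirt1 and 0.13 for Sirt4, so that Sirt3 and Sirt4, neighbours in this order, did not differ beyond their spread. Among the tested genes the condition means spanned from 0.28 on the log2 scale for Nmnat1 to 0.63 for Sirt5. The standard deviation of the 16 condition means was largest for Nampt (0.17), Sirt5 (0.15) and Sirt7 (0.14). Of all genes tested, 71.4% had a smaller one than Nampt and 16.1% a smaller one than Nmnat1.

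**Figure D1:**
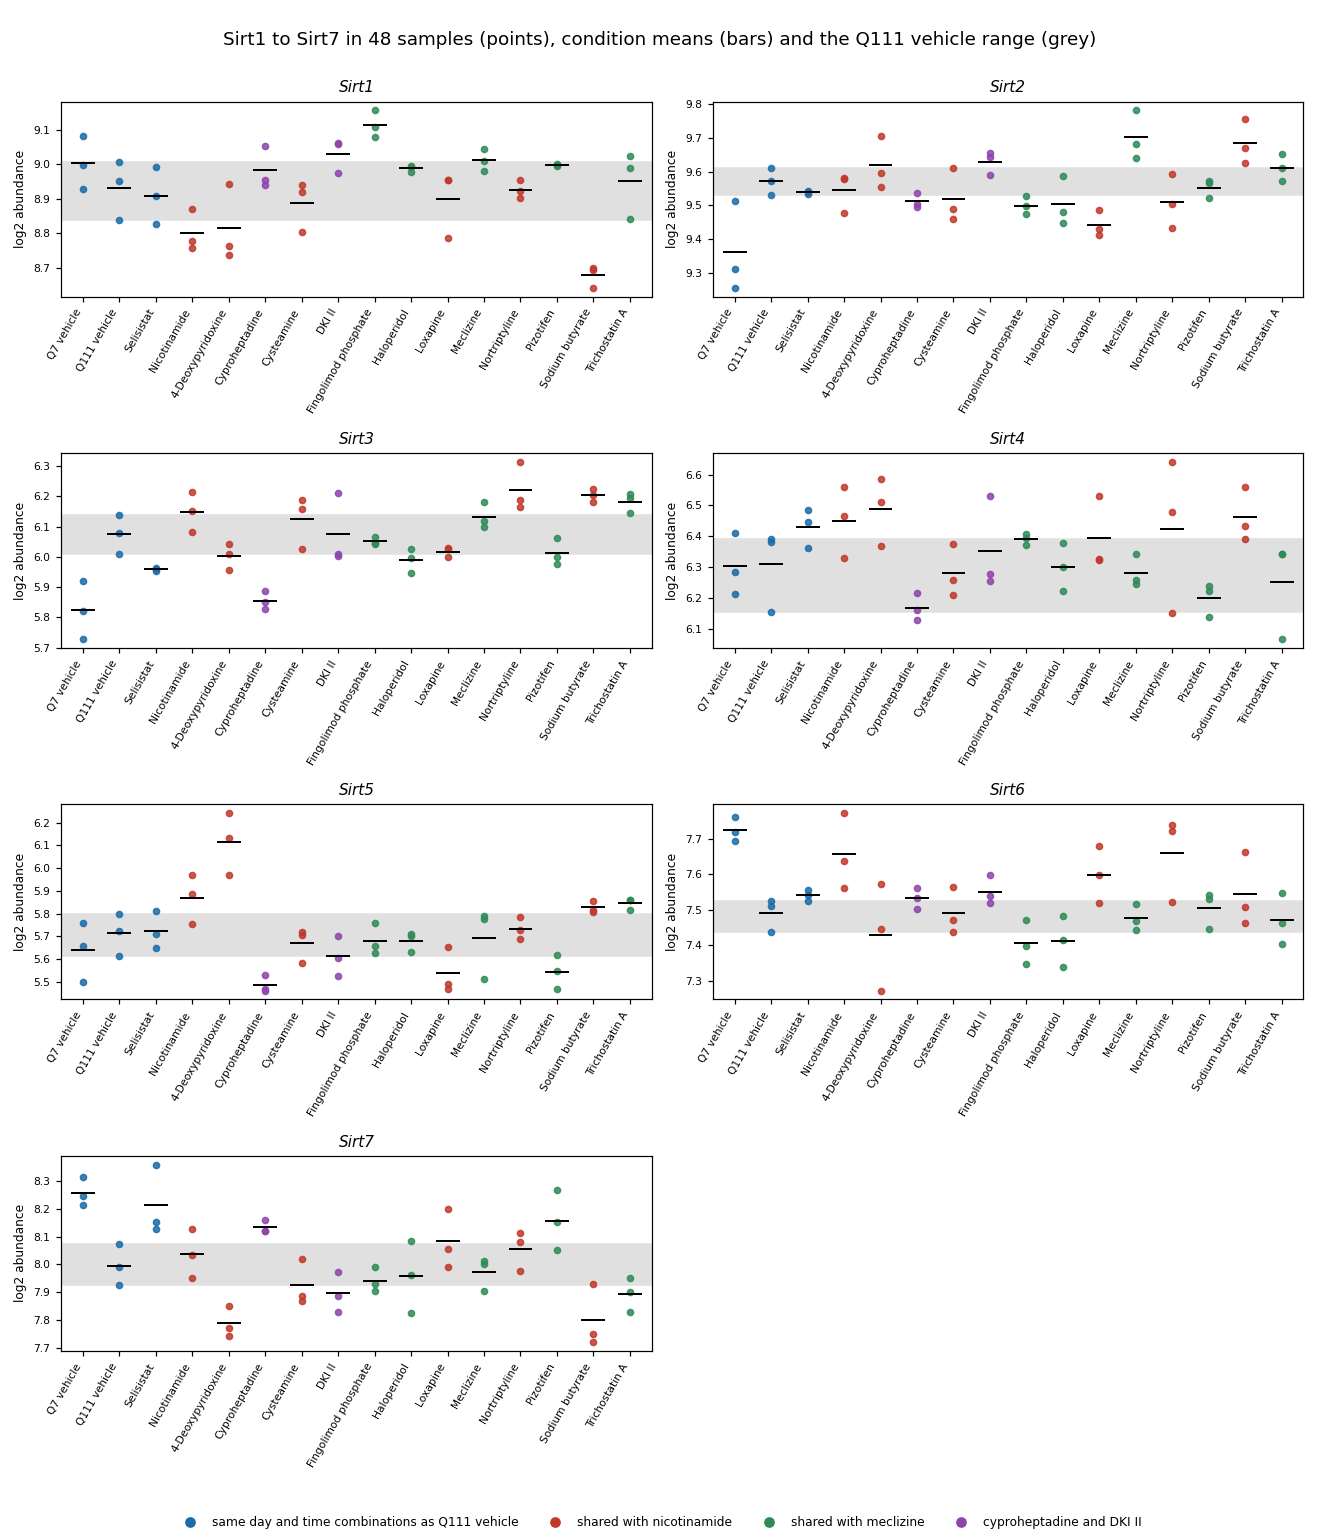
Normalized log2 abundance (vertical axis) of Sirt1 to Sirt7 in the 16 conditions (horizontal axis). Points are samples, bars are means of 3, the grey band is the range of the STHdhQ111 vehicle, and colours mark conditions collected in the same combinations of day and time. Sirt5 with DOP lies above the band and Sirt1 with sodium butyrate below it.

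The selisistat comparison asked how the family is expressed in cells given a SIRT1 inhibitor. None of the 9 genes passed the test against the STHdhQ111 vehicle (limma, Benjamini-Hochberg adjusted p under 0.05 over 13409 genes). The call rate over all genes was 0.515%, and 2307 genes had an unadjusted p under 0.05. This rate rests on single samples. The 69 genes called became 293, 0 or 1151 without selisistat replicate 1, 2 or 3, and 3, 9 or 128 without vehicle replicate 1, 2 or 3. Sirt1, the gene of the target enzyme, stood at 8.91, 8.83 and 8.99 with selisistat and at 8.95, 9.01 and 8.84 with vehicle. The samples of both conditions were interleaved, and the log2 difference was -0.02 with a 95% interval of -0.14 to 0.09. The median log2 difference of the 9 genes was 0.01, against 0.00 over all genes.

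Sirt7, which encodes a nucleolar and chromatin deacylase, had the largest difference with selisistat. Its values were 8.13, 8.36 and 8.15 with selisistat and 7.99, 7.92 and 8.07 with vehicle. Each selisistat sample lay above each vehicle sample. The log2 difference was 0.22 (standard error of the fit, SE, 0.07, interval 0.07 to 0.36) and its adjusted p was 0.131. Without the third selisistat sample the difference was 0.25 at an adjusted p of 0.0429, so that 1 library decides on which side of the threshold Sirt7 falls. Sirt3, the main deacetylase of the mitochondrial matrix, stood at 5.96, 5.95 and 5.96 with selisistat and at 6.01, 6.14 and 6.08 with vehicle. The groups did not overlap, and the log2 difference of -0.12 had an adjusted p of 0.308. Sirt6 also showed no overlap, with a difference of 0.05 and an interval of -0.09 to 0.19. The share of all genes with separate groups was not computed, and nothing particular to the members is read from such separations. For the other members the differences lay between -0.06 (Nampt) and 0.12 (Sirt4).

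The nicotinamide comparison asked whether the product of sirtuins and substrate of NAMPT, at 0.5 nM, went with other levels of these genes. Again none of the 9 genes passed the test, where 10.4% of all genes did. Those 1396 genes became 268, 641 or 2017 without vehicle replicate 1, 2 or 3. They became 1138, 384 or 949 without nicotinamide replicate 1, 2 or 3. Sirt1 stood at 8.78, 8.76 and 8.87 with nicotinamide, and 2 of these values were below each vehicle sample. The log2 difference was -0.13 (SE 0.06, interval -0.25 to -0.01, adjusted p = 0.139). Without the third vehicle sample, which is the lowest for Sirt1, it was -0.18 at an adjusted p of 0.0416.

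Sirt6, a chromatin deacylase with a role in DNA repair and glucose metabolism, stood at 7.64, 7.77 and 7.56 with nicotinamide and at 7.44, 7.52 and 7.51 with vehicle. The groups did not overlap, and the log2 difference of 0.17 had an adjusted p of 0.109. Sirt5, the desuccinylase, stood at 5.89, 5.76 and 5.97 against 5.61, 5.80 and 5.73 with vehicle. These ranges overlapped, and the difference of 0.16 had an adjusted p of 0.191. Nampt differed by 0.09 (interval -0.14 to 0.32) and Nmnat1 by 0.12 (interval -0.04 to 0.27). The groups of Nmnat1 did not overlap either. The median log2 difference of the 9 genes was 0.09, against 0.01 over all genes.

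Because nicotinamide shared no collection with the vehicle, it was also set against nortriptyline, given at 1 nM and collected in the same combinations. None of the 9 genes passed this test, and 0% of all genes did (limma), with 402 genes at an unadjusted p under 0.05. The difference of Sirt6 was 0.00 in this comparison and that of Sirt1 was -0.12, both at an adjusted p of 1. Nicotinamide and the 5 compounds collected with it each had a Sirt1 mean below the vehicle, with log2 differences of -0.25 to -0.01. Meclizine and the 4 compounds collected with it each had one above it, with differences of 0.02 to 0.18. For Sirt1 the collection and the compound cannot be told apart in a comparison with the vehicle.

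**Figure D2:**
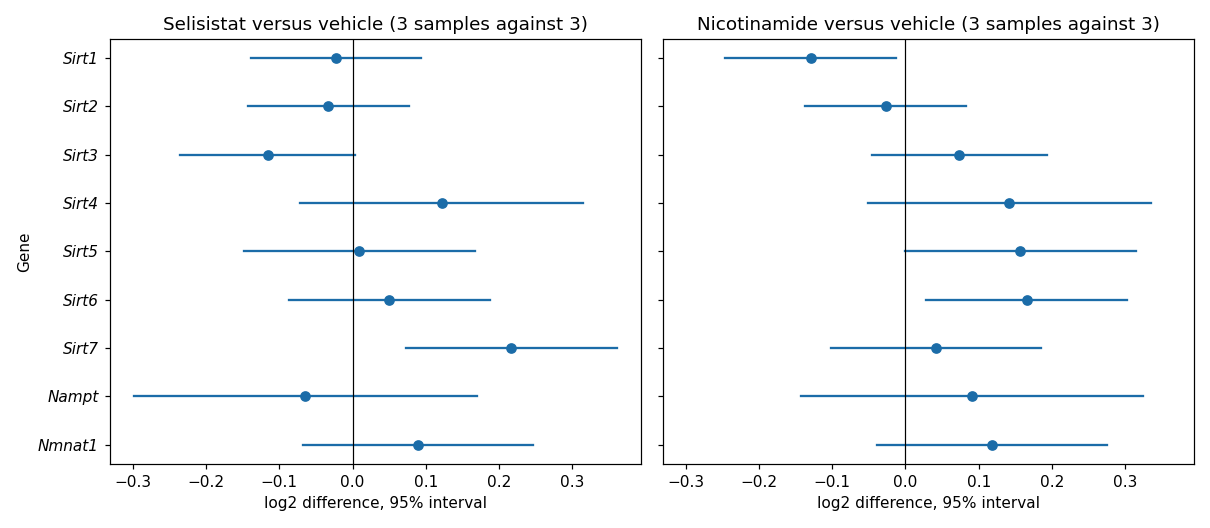
Log2 difference from the STHdhQ111 vehicle (horizontal axis) of the 9 tested genes (vertical axis) with selisistat (left) and nicotinamide (right), 3 samples against 3. Points are fitted differences and lines their 95% intervals. The intervals of Sirt7 with selisistat (0.07 to 0.36) and of Sirt6 with nicotinamide (0.03 to 0.30) lie above 0, that of Sirt1 with nicotinamide (-0.25 to -0.01) lies below it, and no gene passed after adjustment.

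Among the 12 other compounds, 7 of 108 tests passed, in 4 compounds, and 21 had an unadjusted p under 0.05. Of all genes, 20.1% were called with DOP, 35.6% with cyproheptadine, 26.8% with meclizine and 37.5% with sodium butyrate. Over the 12 comparisons this rate ran from 0% (haloperidol) to 42.3% (DKI), and nothing particular to the members is read from the count. The 7 calls were of Sirt5 and Sirt7 with DOP, Sirt3 and Sirt5 with cyproheptadine, Nampt with meclizine, and Sirt1 and Sirt7 with sodium butyrate. They are described by gene below. Each of these comparisons uses the same 3 vehicle samples. For 3 of these compounds a compound of the same collections was also taken as the reference, nortriptyline for sodium butyrate and DOP and haloperidol for meclizine. Against nortriptyline, 5 of the 9 members passed with sodium butyrate, where 25.6% of all genes did, and 4 with DOP, where 6.03% did. Against haloperidol, 2 passed with meclizine, where 25.7% of all genes did. The 5 calls against vehicle in these compounds passed here too, and 6 further ones are given with their genes. Cyproheptadine was not set against another reference.

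Sirt1 fell with sodium butyrate. Its values were 8.64, 8.70 and 8.70, all below the vehicle samples and the 3 lowest of all 48. The log2 difference was -0.25 (SE 0.06, adjusted p = 0.00064), a level of 0.840 of the vehicle. With sodium butyrate, 37.5% of all genes were called, 19.6% higher and 17.8% lower. The call held in all 16 alternatives run, at -0.31 to -0.21. Against nortriptyline, which shares its collections with sodium butyrate, the difference was -0.25 at an adjusted p of 0.00146. Trichostatin A, the other histone deacetylase inhibitor, was given at 10 nM and left Sirt1 at 8.84, 9.02 and 8.99, with a difference of 0.02 from vehicle and an interval of -0.10 to 0.13. The doses of these compounds differ, and no test was made between them. Sirt1 was highest with fingolimod phosphate, a sphingosine phosphate receptor ligand, at 9.11, 9.16 and 9.08. All 3 samples lay above the vehicle, and the difference of 0.18 had an adjusted p of 0.167 where 0.0597% of all genes were called.

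Sirt7 was lower with sodium butyrate and with DOP. It stood at 7.93, 7.72 and 7.75 with sodium butyrate, the first of which overlapped with the vehicle. The log2 difference was -0.19 (SE 0.07, adjusted p = 0.0288). With DOP, an antagonist of vitamin B6, it stood at 7.85, 7.74 and 7.77, all below the vehicle. That difference was -0.21 (SE 0.07, adjusted p = 0.0361), in a comparison where 20.1% of all genes were called, 8.93% higher and 11.2% lower. Against nortriptyline the differences were -0.26 (adjusted p = 0.00699) and -0.27 (adjusted p = 0.02). Both calls against vehicle were lost when only the compared samples were fitted and without vehicle replicate 1 or 3. They were also lost without replicate 2 or 3 of the compound. The adjusted p then reached 0.143 for sodium butyrate, with a difference of -0.15, and 0.141 for DOP, with one of -0.18.

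Sirt5 had the widest span of condition means of the 9 genes and the largest difference with a compound. With DOP it rose to 6.13, 6.24 and 5.97, and no sample of the other 15 conditions lay above these values. The nearest was the highest nicotinamide sample, also at 5.97. The log2 difference from vehicle was 0.40 (SE 0.08, adjusted p = 0.000339), or 1.32-fold. It lay between 0.33 and 0.48 in 15 alternatives and passed in each. Against nortriptyline it was 0.38 at an adjusted p of 0.0024. With cyproheptadine, an antihistamine, Sirt5 fell to 5.53, 5.46 and 5.47, below each vehicle sample. Its difference was -0.23 (SE 0.08, adjusted p = 0.0224), where 35.6% of all genes were called, 17.5% higher and 18.2% lower. This call was lost in a fit of the compared samples alone. It was also lost without vehicle replicate 2 or 3 or cyproheptadine replicate 2 or 3, at an adjusted p of up to 0.128 and a difference of -0.18. Loxapine and pizotifen had Sirt5 differences of -0.18 (adjusted p = 0.105) and -0.17 (adjusted p = 0.137).

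Sirt3 fell with cyproheptadine to 5.85, 5.89 and 5.83, against 6.01, 6.14 and 6.08 with vehicle. The groups were separate, and the log2 difference was -0.22 (SE 0.06, adjusted p = 0.00324). It lay between -0.25 and -0.19 in 15 alternatives and missed the threshold in 1, the fit of the compared samples alone (adjusted p = 0.0687). Nortriptyline gave the highest Sirt3 mean, with values of 6.19, 6.31 and 6.16, all above the vehicle, and a difference of 0.15 (adjusted p = 0.159) where 3.83% of all genes were called. DOP, at -0.07 from the vehicle, was lower than nortriptyline by a log2 difference of -0.22 (adjusted p = 0.0212).

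Nampt rose with meclizine, another antihistamine, to 10.28, 10.25 and 10.30, from 9.94, 9.92 and 10.02 with vehicle. The groups were separate and the samples of each lay close together. The log2 difference was 0.32 (SE 0.12, adjusted p = 0.0354), or 1.25-fold, where 26.8% of all genes were called, 13.1% higher and 13.6% lower. Against haloperidol, which was collected with meclizine, it was 0.33 at an adjusted p of 0.0326. The call was lost with no filter on low values (adjusted p = 0.0603), without vehicle replicate 1 or 2, and without each meclizine sample in turn. The difference stayed between 0.30 and 0.35 in all 16 alternatives, and the highest adjusted p was 0.099. Nampt was above the vehicle with 9 of 14 compounds. Loxapine samples stood at 10.13, 10.33 and 10.31, with a difference of 0.30 (adjusted p = 0.0593). Without loxapine replicate 1 it was 0.36 at an adjusted p of 0.0461. Pizotifen, with 10.10, 10.25 and 10.28, differed by 0.25 (adjusted p = 0.129). The call rates over all genes were 21.9% with loxapine and 17.9% with pizotifen. Sodium butyrate had a Nampt difference of -0.10 from vehicle, which did not pass, and one of -0.30 from nortriptyline (adjusted p = 0.0493). Nortriptyline itself stood 0.20 above the vehicle (adjusted p = 0.348).

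Sirt2, Sirt4, Sirt6 and Nmnat1 passed the test against vehicle with none of the 14 compounds. Sirt2, a tubulin deacetylase, ranged in its log2 difference from -0.13 (loxapine) to 0.13 (meclizine). With meclizine its values of 9.78, 9.64 and 9.68 lay above each vehicle sample, and the adjusted p was 0.0756. Without meclizine replicate 2 the difference was 0.16 at an adjusted p of 0.047. Against the references of the same collections Sirt2 was higher with meclizine, by 0.20 over haloperidol (adjusted p = 0.00594), and with sodium butyrate, by 0.17 over nortriptyline (adjusted p = 0.0162). Sirt4, a mitochondrial regulator of glutamine use, varied from -0.14 (cyproheptadine) to 0.18 (DOP), with the second widest spread within conditions, a standard deviation of 0.12 against 0.15 for Nampt. Sirt6 varied from -0.08 to 0.17 and, with DOP, differed by -0.23 from nortriptyline (adjusted p = 0.0346), which itself stood 0.17 above the vehicle. Nmnat1, the nuclear NMNAT enzyme, was above the vehicle with 12 of 14 compounds at differences of at most 0.18, with a median of 0.11. Without sodium butyrate replicate 3 its difference with that compound went from -0.10 to -0.20 (adjusted p = 0.0453), and against nortriptyline it was -0.25 (adjusted p = 0.0137). Nortriptyline itself stood 0.16 above the vehicle for Nmnat1. Without loxapine replicate 1 the Nmnat1 difference with loxapine went from 0.18 to 0.24 (adjusted p = 0.045). Likewise Sirt1 with DOP, at -0.12 and an adjusted p of 0.15, passed without DOP replicate 2 (-0.19, adjusted p = 0.0362) or vehicle replicate 3 (-0.17, adjusted p = 0.0461).

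DKI changed 42.3% of all genes, 20.4% higher and 21.9% lower, more than any other compound, and none of the 9 members passed. The median absolute log2 difference of the members was 0.06 with DKI. Trichostatin A changed 13.1% of all genes, cysteamine 7.83% and haloperidol 0% (397 genes at an unadjusted p under 0.05, limma), and no member passed with these either.

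**Figure D3:**
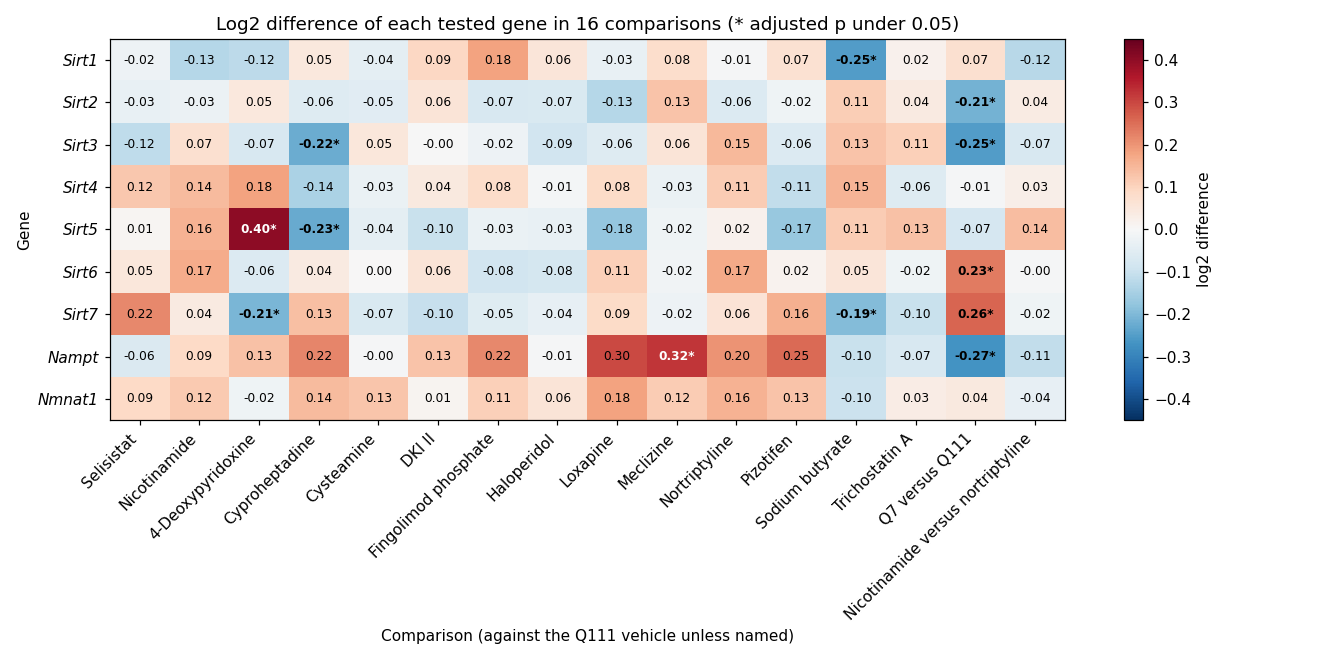
Fitted log2 difference (colour and number) of the 9 tested genes (rows) in 16 comparisons (columns), against the STHdhQ111 vehicle unless named. Asterisks and bold type mark an adjusted p under 0.05. The 7 compound calls lie in the columns of DOP, cyproheptadine, meclizine and sodium butyrate, and 5 calls lie in the comparison of the vehicle controls.

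Nnmt was low in every sample, from 0.46 to 0.73, under the minimum of 1. DKI samples stood at 0.73, 0.68 and 0.56 and meclizine samples at 0.63, 0.69 and 0.60, all above the vehicle samples at 0.51, 0.46 and 0.50. With no filter on low values, in which 18178 genes were tested, these were the compounds with which Nnmt passed, at log2 differences of 0.16 (adjusted p = 7.48e-05) and 0.15 (adjusted p = 0.000549). Values this low hardly vary in the deposited scale. The median standard deviation over samples was 0.011 for genes with a mean under 1 and 0.14 for the genes tested, so that a log2 difference here is not comparable with that of the other members. With selisistat and nicotinamide the differences of Nnmt were -0.01 and 0.00.

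**Figure D4:**
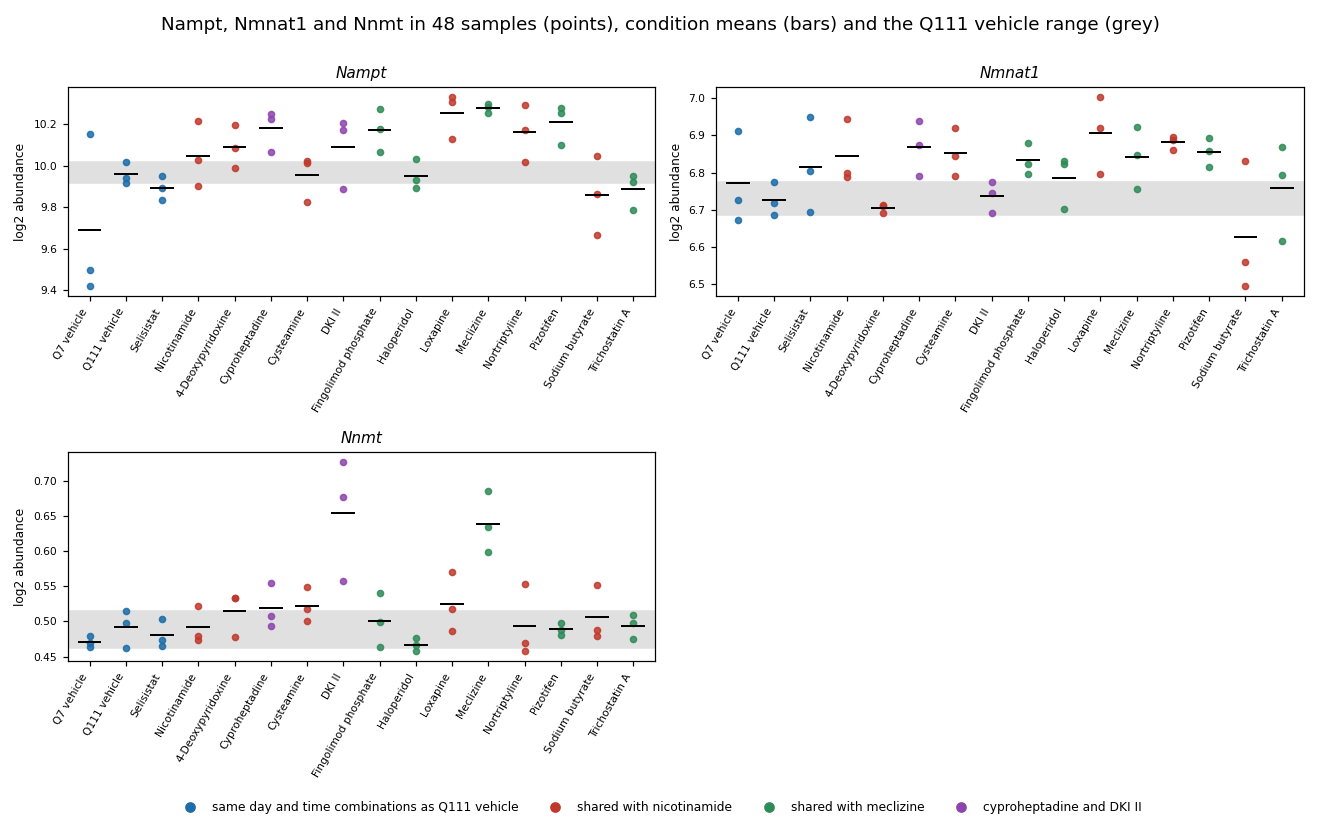
Normalized log2 abundance (vertical axis) of Nampt, Nmnat1 and Nnmt in the 16 conditions (horizontal axis). Points are samples, bars are means of 3, the grey band is the range of the STHdhQ111 vehicle, and colours mark shared collections. The meclizine samples of Nampt lie at 10.25 to 10.30, above the band, the axis of Nnmt runs over values of 0.46 to 0.73 only, and the first STHdhQ7 sample of Nampt stands apart at 10.15.

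Between the vehicle controls of both cell lines, 5 of the 9 genes passed, where 55.8% of all genes did, 29.2% higher and 26.6% lower in STHdhQ7. Sirt6 and Sirt7 were higher in STHdhQ7 cells, and Sirt2, Sirt3 and Nampt were lower. Sirt7 stood at 8.21, 8.31 and 8.24 in STHdhQ7 and at 7.99, 7.92 and 8.07 in STHdhQ111, a log2 difference of 0.26 (SE 0.07, adjusted p = 0.00189). Sirt6 stood at 7.72, 7.69 and 7.76 against 7.44, 7.52 and 7.51, a difference of 0.23 (SE 0.07, adjusted p = 0.00341). For both of these nuclear sirtuins the cell lines were separate, and the calls held in all 15 alternatives.

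Sirt3 stood at 5.92, 5.73 and 5.82 in STHdhQ7 against 6.01, 6.14 and 6.08, a log2 difference of -0.25 (SE 0.06, adjusted p = 0.000393). Sirt2 stood at 9.26, 9.31 and 9.51 against 9.57, 9.53 and 9.61, a difference of -0.21 (SE 0.05, adjusted p = 0.00106). The lines were separate for both. Sirt3 missed the threshold in the fit of these 6 samples alone (adjusted p = 0.0674). Nampt stood at 10.15, 9.42 and 9.49 in STHdhQ7, the first of which lay above every STHdhQ111 vehicle sample. Its difference of -0.27 (SE 0.12, adjusted p = 0.0458) was lost in 10 of 15 alternatives. Without STHdhQ7 replicate 1 it was -0.52 (adjusted p = 1.56e-05), without replicate 2 it was -0.13 (adjusted p = 0.4) and without replicate 3 it was -0.16 (adjusted p = 0.294). Without vehicle replicate 1, 2 or 3 of STHdhQ111 its adjusted p was 0.0786, 0.0652 or 0.122. Sirt1 differed by 0.07 (interval -0.05 to 0.19) between the lines, Sirt4 by -0.01, Sirt5 by -0.07 and Nmnat1 by 0.04, and none of these passed.

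**Figure D5:**
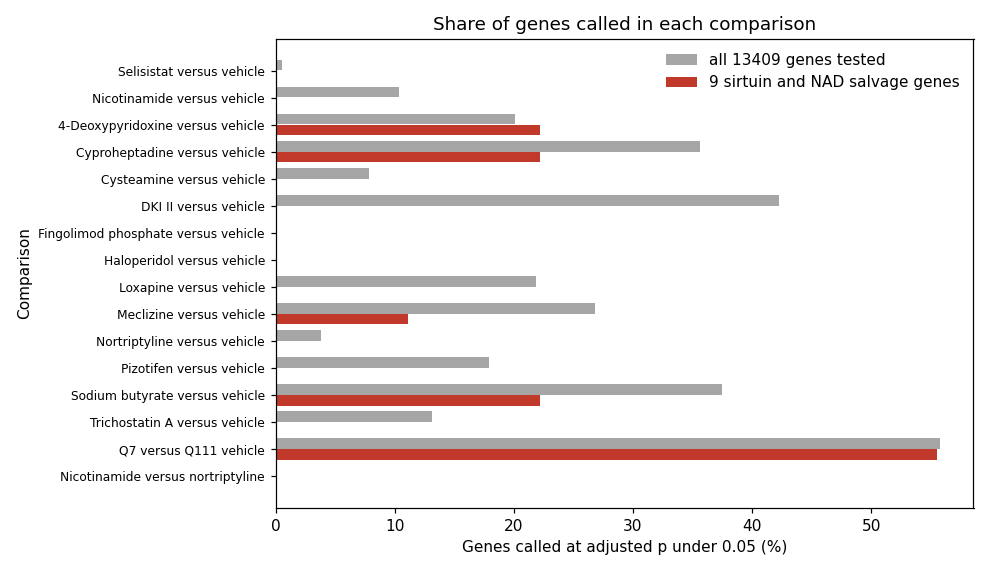
Percentage of genes called at an adjusted p under 0.05 (horizontal axis) in each comparison (vertical axis), for all 13409 genes tested (grey) and for the 9 tested sirtuin and NAD salvage genes (red). The red bars stand at 0 in all but 5 comparisons, and at 5 of 9 genes between the vehicle controls.

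The other genes of the pathway were read from 6 lists, of which 56 genes were tested. With selisistat none of the 56 passed, as with fingolimod phosphate and haloperidol. With nicotinamide 7 passed, or 12.5% beside 10.4% of all genes, and against nortriptyline none did. The share was 19.6% with DOP (20.1% of all genes), 33.9% with meclizine (26.8%), 46.4% with cyproheptadine (35.6%), 48.2% with DKI (42.3%), 51.8% with sodium butyrate (37.5%) and 62.5% between the vehicle controls (55.8%). Several of these shares lie close to the rate over all genes, and nothing particular to the lists is read from them. Loxapine and pizotifen each changed 14 of the 56, beside 21.9% and 17.9% of all genes. Trichostatin A changed 7, beside 13.1%, and cysteamine and nortriptyline 3 each, beside 7.83% and 3.83%. Of the 7 genes called with nicotinamide, Naprt, the first enzyme of salvage from nicotinic acid, was higher by 0.26 (adjusted p = 0.0198). The tankyrases Tnks2 (-0.22, adjusted p = 0.0024) and Tnks (-0.23, adjusted p = 0.033) and Parp1 (-0.15, adjusted p = 0.0498), all of which consume NAD, were lower. Mtr, the methionine synthase, differed by -0.32 (adjusted p = 0.0104). Rps19bp1, whose product activates SIRT1, differed by 0.24 (adjusted p = 0.0298), and Senp1, a SUMO protease that acts on SIRT1, by -0.14 (adjusted p = 0.0253). Each of the 7 was lost without nicotinamide replicate 2, and all but Naprt also without vehicle replicate 1. The highest adjusted p over the alternatives lay between 0.0606 for Tnks2 and 0.329 for Tnks.

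Genes of NAD synthesis and salvage other than the members numbered 9 of 17 tested. With sodium butyrate 7 of the 9 rose, where 19.6% of all genes did, and none fell, at a median log2 difference of 0.24 against 0.02 over all genes. Naprt rose by 0.59 (adjusted p = 9.13e-08), from 4.09 to 4.68. Nt5e, an ectonucleotidase that can turn nicotinamide mononucleotide into its nucleoside, rose by 0.55 (adjusted p = 0.00027), and Pnp2, a purine nucleoside phosphorylase, by 0.30 (adjusted p = 0.0222). Pnp2 lost its call without vehicle replicate 1 or sodium butyrate replicate 1 or 2 (adjusted p up to 0.0998), and Naprt and Nt5e passed in all 14 alternatives. In the same samples neither Nampt nor Nmnat1 passed against vehicle, both at -0.10. Both were lower than with nortriptyline, as given above. Nortriptyline itself stood above the vehicle by 0.20 for Nampt and 0.16 for Nmnat1, and neither passed. Nt5e was also higher with DKI, by 0.95 (adjusted p = 1.96e-08), with cyproheptadine, by 0.71 (adjusted p = 8.77e-06), and with trichostatin A, by 0.57 (adjusted p = 0.000704). With meclizine it was higher by 0.44 (adjusted p = 0.00404) and with pizotifen by 0.41 (adjusted p = 0.00987), the latter lost without pizotifen replicate 3. Naprt was lower with DKI, at -0.30 (adjusted p = 0.00116), and missed the threshold in the fit of the compared samples alone (adjusted p = 0.0539). It was also lower with meclizine (-0.26, adjusted p = 0.00766), pizotifen (-0.23, adjusted p = 0.0227) and cyproheptadine (-0.20, adjusted p = 0.03), each call lost without vehicle replicate 1. With DOP it was higher by 0.28 (adjusted p = 0.00683), a call lost without vehicle replicate 2 (adjusted p = 0.0735). Sodium butyrate, DOP and nicotinamide, with which Naprt was higher, shared their collections and had none in common with the vehicle. For Naprt the collection and the compound cannot be told apart in these comparisons. With DOP 1 gene of the list rose, with meclizine 1 rose and 1 fell, and with selisistat none passed. Between the lines, Nmnat2, a cytoplasmic NMNAT of neurons, was 1.15 higher in STHdhQ7 (adjusted p = 1.34e-16). Nmnat3, the mitochondrial form, had a difference of -0.63 (adjusted p = 5.48e-09).

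The list of NADP synthesis and transport had 7 genes tested. Nadk2, the mitochondrial NAD kinase, was lower with cyproheptadine (-0.49, adjusted p = 7.44e-07), pizotifen (-0.41, adjusted p = 4.86e-05), DKI (-0.39, adjusted p = 1.96e-05) and loxapine (-0.35, adjusted p = 0.000292). It was also lower with meclizine (-0.25, adjusted p = 0.0061), and it was higher with sodium butyrate (0.20, adjusted p = 0.0198) and nortriptyline (0.23, adjusted p = 0.0486). The meclizine call was lost without vehicle replicate 1 or meclizine replicate 1 (adjusted p up to 0.0622). With sodium butyrate Nadk2 passed in 11 of 15 alternatives (adjusted p up to 0.0896), and with nortriptyline in 6 of 15 (adjusted p up to 0.257). Nnt, the transhydrogenase of the inner mitochondrial membrane, was lower with DKI (-0.34, adjusted p = 2.6e-06) and with cyproheptadine (-0.30, adjusted p = 3.19e-05). It was also lower with loxapine (-0.25, adjusted p = 0.000913), meclizine (-0.24, adjusted p = 0.00068) and pizotifen (-0.23, adjusted p = 0.00185). Its calls with cysteamine (-0.19, adjusted p = 0.0237) and sodium butyrate (-0.15, adjusted p = 0.0269) were lost without vehicle replicate 1. Slc25a51, the mitochondrial NAD carrier, was higher with DKI (0.38, adjusted p = 1.3e-08) and meclizine (0.29, adjusted p = 8.29e-06). With cyproheptadine 3 of the 7 fell and 1 rose, with DKI 2 fell and 2 rose, and with sodium butyrate 2 fell and 2 rose, where 35.6%, 42.3% and 37.5% of all genes were called. In STHdhQ7 cells 4 were lower and 1 higher, with Nadk2 at -0.93 (adjusted p = 1.21e-14) and Slc25a51 at -0.42 (adjusted p = 2.75e-10).

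NAD consumers other than sirtuins had 16 genes tested. With cyproheptadine 9 fell and none rose, with sodium butyrate 8 fell and 1 rose, and with DKI 6 fell and 1 rose. Of all genes 18.2%, 17.8% and 21.9% were lower in these comparisons. The list median was -0.23 with cyproheptadine and -0.16 with sodium butyrate, against 0.00 and 0.02 over all genes. Parp14 was lower with cyproheptadine (-1.10, adjusted p = 1.55e-05), with DKI (-0.85, adjusted p = 0.000342) and with sodium butyrate (-0.79, adjusted p = 0.00105). Its calls with meclizine (-0.62, adjusted p = 0.0123) and trichostatin A (-0.57, adjusted p = 0.0359) were lost without vehicle replicate 1. Between the lines 11 were lower, beside 26.6% of all genes, and 2 higher in STHdhQ7, led by Parp14 (-2.05, adjusted p = 4.81e-12), Parp9 (-1.30, adjusted p = 3.85e-11) and Parp12 (-1.22, adjusted p = 7.56e-10). These 3 ADP-ribosyltransferase family genes are known as genes that interferon induces. With nicotinamide 3 fell and with selisistat none passed.

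Nicotinamide clearance and the methyl cycle, the source of the methyl group that NNMT uses, had 7 genes tested. Mtr was lower with nicotinamide and with each of the 5 compounds collected with it, by most with sodium butyrate (-0.56, adjusted p = 1.83e-06). It was also lower with pizotifen (-0.26, adjusted p = 0.0243) and trichostatin A (-0.25, adjusted p = 0.0396), and higher with DKI (0.33, adjusted p = 0.00162). With DOP 3 genes fell, where 11.2% of all genes did, among them Mtr (-0.34, adjusted p = 0.00309) and Mat2a (-0.29, adjusted p = 0.00217). The vehicle samples of Mtr had a standard deviation of 0.24. Without vehicle replicate 1, Mtr did not pass with DOP, nicotinamide, loxapine, nortriptyline, cysteamine, pizotifen or trichostatin A. Aox1, an oxidase of methylated nicotinamide, was 0.67 higher in STHdhQ7 (adjusted p = 2.8e-09).

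Of the 6 regulators of SIRT1, Hic1, whose product represses transcription of Sirt1, was lower in STHdhQ7 (-1.64, adjusted p = 6.43e-20), while Sirt1 itself did not pass. Hic1 was lower with DOP (-0.32, adjusted p = 0.00463) and higher with sodium butyrate (0.29, adjusted p = 0.00442). Senp1 was lower with sodium butyrate (-0.30, adjusted p = 3.46e-07). Rps19bp1 was higher with DKI (0.44, adjusted p = 7.46e-06) and cyproheptadine (0.33, adjusted p = 0.000608). Its calls with pizotifen (0.25, adjusted p = 0.0133), loxapine (0.22, adjusted p = 0.0296) and meclizine (0.20, adjusted p = 0.0407) were lost without vehicle replicate 1. Of the 6, none passed with selisistat, 2 with nicotinamide and 4 between the vehicle controls. Of all genes, 0.515%, 10.4% and 55.8% were called in these comparisons, and nothing particular to the regulators is read from the counts. Hic1 missed the threshold without DOP replicate 2 (adjusted p = 0.062) and without sodium butyrate replicate 3 (adjusted p = 0.0539).

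Of the sirtuin substrates, 11 genes were tested, and none passed with selisistat or nicotinamide. Ppargc1a, a coactivator of mitochondrial genes, was higher with meclizine (0.50, adjusted p = 1.62e-05) and DKI (0.48, adjusted p = 1.2e-05) and lower in STHdhQ7 (-1.03, adjusted p = 1.26e-13). Acss2, an acetyl-CoA synthetase, was higher with cyproheptadine (0.56, adjusted p = 0.000105), pizotifen (0.54, adjusted p = 0.00044) and loxapine (0.53, adjusted p = 0.000467). It was lower with DKI (-0.77, adjusted p = 3.67e-07). With sodium butyrate 3 of the 11 fell and none rose, where 37.5% of all genes were called. With DKI 5 fell and 2 rose, where 42.3% were called, and with meclizine 4 fell and 1 rose, where 26.8% were called.

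Genes with the pattern most like that of a member over the 16 condition means were named for the 3 members that varied most, as a description. Conditions of one collection and the shared vehicle are not independent points. For Nampt they were Seh1l (Pearson's r = 0.8652), Golt1b (0.8622) and Evi2a (0.8611). Those for Sirt5 were Zc3h6 (0.9473), Zscan21 (0.9244) and Zfp524 (0.9168). Sirt7 was followed by Ncdn (0.9267), Upf1 (0.8925) and 2510039O18Rik (0.8869). Among the members themselves the highest r were 0.638 for Sirt4 with Sirt5, 0.590 for Sirt2 with Sirt3 and 0.576 for Nampt with Nmnat1.

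Several members overlap other annotated genes on GRCm38. Sirt7 (chromosome 11, 120618372 to 120625240, minus strand) overlaps Mafg and Mir6936 on the same strand, and Nampt overlaps Gdap10 on the same strand. Sirt1, Sirt2, Sirt3 and Nmnat1 overlap genes of the other strand, for Sirt3 (chromosome 7, 140863666 to 140882309, minus strand) Ric8a and Psmd13. How shared bases were divided, and whether strand was used, is not given in the sources used here. Sirt5 (chromosome 13, 43365496 to 43395203, plus strand), Sirt4 and Sirt6 overlap no other annotated gene.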

How the data were processed

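RNA was sequenced after polyA selection with a directional kit in 48 samples. According to the labels and the study's methods, the authors trimmed reads with Trimmomatic 0.36, quantified them against GRCm38.p5 with RSEM and tested counts with DESeq2. The values deposited by the authors are normalized abundances on a log2 scale, read as such because they go below 0. The transformation is not given in the sources used here. No counts could be recovered, so depth is unknown, counting errors cannot be stated and a pseudocount was not needed. Linear sums differed by at most 1.11 times between samples, and correlations between replicates across genes were 0.9964 to 0.9994.

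Genes with a symbol and a mean of at least 1 were tested (13409 of 18178). A model of 16 conditions and collection day was fitted per gene to all samples by limma 3.58.1 under R 4.3.3 (30 residual degrees of freedom, variance trend), with two-sided p-values and Benjamini-Hochberg adjustment over all genes of a comparison. With 3 samples against 3, an exact permutation test cannot go below 0.1 and was not used. The procedure was tested on simulated data. The members and the 6 lists (NAD synthesis and salvage, NADP and transport, NAD consumers, nicotinamide clearance and methyl cycle, SIRT1 regulators, sirtuin substrates) were chosen with earlier results of these data known. The text names all 10 members, per list and comparison at most the 3 called genes with the largest differences, and for the 3 members that varied most the 3 most correlated genes. Certain genes of the lists and markers are not reported by name here. Alternatives were other minimums (none, 6), samples shifted to a common median, other terms, the replicate number as a block, only the compared samples, no or a robust variance trend, and leaving out each sample. References from the same collections and the listing of Nnmt without a filter were chosen after seeing the data. Positions and transcript lengths are from GENCODE annotation of GRCm38, and promoter windows from RefSeq on GRCm38.p6, which had an entry for 9 of the 10 genes. Figures were drawn with matplotlib 3.10.9.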

Additional observations from a re-analysis of the deposited data

How the results depend on the processing

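Over 9 alternatives to the fit, the count of members called was 0 with selisistat, 0 with nicotinamide and 0 for nicotinamide against nortriptyline in each, and 5 to 8 for the 12 other compounds (7 as reported). In the fit of the compared samples alone, 3 in place of 5 members passed between the vehicle controls. With 1 sample left out the counts ranged from 0 to 1 for selisistat, 0 to 1 for nicotinamide, 4 to 9 for the 12 other compounds, 4 to 5 between the vehicle controls and 100 to 179 for the 160 calls of pathway list genes with the 14 compounds. Without vehicle replicate 1 of STHdhQ111, 4 calls of members with compounds, 4 between the vehicle controls and 100 of list genes with compounds were left. Of the 12 calls of members, 5 held in every alternative run, namely Sirt5 with DOP, Sirt1 with sodium butyrate, and Sirt2, Sirt6 and Sirt7 between the vehicle controls. None of the 12 changed sign. Differences that were not called changed sign with 1 sample left out for Sirt1 with selisistat (range -0.077 to 0.019, above 0 without vehicle replicate 2 or selisistat replicate 2), Sirt5 with selisistat (-0.045 to 0.058, below 0 without vehicle replicate 1 or selisistat replicate 1), Sirt2 with nicotinamide (-0.049 to 0.0072, above 0 without nicotinamide replicate 3) and Sirt7 with nicotinamide (-0.0073 to 0.087, below 0 without nicotinamide replicate 2). The causes were not tested.

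Replicate numbers do not pair these samples. The number equals the collection day in every sample but replicate 1 of cyproheptadine and of DKI, both labelled day 3. A fit with the number as a block is thus nearly the main fit, and its counts below are not a separate check. Over 120 pairs of conditions the mean correlation of same-numbered deviations was -0.0487, and 1 pair had every correlation over 0.1. With the replicate number as a block in place of the collection day, the counts were 0 for selisistat, 0 for nicotinamide, 7 for the 12 other compounds, 5 between the vehicle controls, 0 for nicotinamide against nortriptyline and 161 for the list genes with compounds, and no call of a member changed. The deposited scale compresses low values, which limits what can be said of Nnmt.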
